A study of Mus musculus with 15 samples.

Results

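Il31ra and 7 other genes that mark or serve the itch neurons which make somatostatin were followed across mouse dorsal root ganglia with and without the miR-183 cluster, and with and without nerve injury. The genes were Il31ra, Osmr, Nppb, Sst, Htr1f, Cysltr2, Jak1 and Ptprk. They were taken by symbol, each matched 1 identifier of the deposited table, and they are 8 of 39179 identifiers there and 8 of the 16976 genes tested. All 8 passed the filter on low counts and had reads in every library, and the lowest was Sst with 7 counts in 1 library.

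Messenger RNA was sequenced from the lumbar 4 to 6 dorsal root ganglia of 15 mice of 3 to 6 months, on a mixed background that is mostly C57bl6, with 1 library per animal. Knockout mice are labelled Wnt1-Cre; mirflox/flox, so that Cre recombinase, driven by the Wnt1 promoter in the neural crest that gives rise to sensory neurons and their glia, removes the floxed cluster. Control mice are labelled Wnt1-Cre or wt. The groups were 3 knockout mice with spared nerve injury (SNI, replicates 13, 19 and 21), 3 control mice with SNI (15, 18 and 23), 4 naive knockout mice (4, 5, 8 and 9) and 5 naive control mice (1, 2, 3, 6 and 7). Control SNI replicates 18 and 23 and control naive replicate 7 were wt and lacked the Cre that all knockout mice carry. In SNI the common peroneal and tibial branches of the sciatic nerve are tied and cut and the sural branch is spared. Animals were numbered 948 to 956 in the knockout SNI group and 974 to 976 in the control SNI group, and in injured mice the genotype cannot be told apart from that numbering. The naive animals were numbered 1041 to 1082, so injury and numbering cannot be told apart either.

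Itch neurons of this class are small sensory neurons that make natriuretic polypeptide b and somatostatin. In mice, interleukin 31 acts on them through a receptor made of Il31ra and Osmr, which signals through Jak kinases and Stat factors, while serotonin and leukotrienes act on them through the G protein-coupled receptors Htr1f and Cysltr2. The peptide Nppb passes the itch signal to the spinal cord. Osmr also pairs with Il6st to form a receptor for oncostatin M, and Jak1 serves many cytokine receptors in many cell types, so neither is restricted to these neurons. Ptprk is a receptor-type tyrosine phosphatase that binds to itself across cell contacts.

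The deleted cluster holds 3 microRNAs whose seeds, bases 2 to 8, select their targets. The mature sequences (RefSeq, GRCm38.p6, minus strand of chromosome 6) are shown with the seed in capitals, because the seeds were searched for in the 8 genes. They lie at chr6:30169711-30169732, chr6:30169506-30169528 and chr6:30165962-30165986.
miR-183-5p: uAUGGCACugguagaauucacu
miR-96-5p: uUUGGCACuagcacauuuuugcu
miR-182-5p: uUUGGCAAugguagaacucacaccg
Of the 8 genes, 1 held an 8mer match (GTGCCATA, GTGCCAAA or TTGCCAAA, in the sense strand of the longest annotated 3′ UTR of GENCODE M21), against 9.33% of 14451 tested genes with a 3′ UTR. It was Osmr, with a miR-183-5p match at base 1283 of its 3′ UTR (chr15:6814081-6814088, minus strand, GRCm38), shown with 10 bases on either side and the match in capitals.
Osmr 3′ UTR: ctcctggaatGTGCCATAgaggaatgac
Il31ra and the other 6 genes held none of the 3 matches in that window, nor a 7mer-m8 match, which 26.8% of tested genes held.

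The libraries held 5.25 to 10.8 M counts. Control SNI replicate 23 was the shallowest and stood apart, with 7.43% mitochondrial counts against 2.26 to 3.6% in the other 14 libraries. Pan-neuronal markers were present throughout, with a summed level of 5184 to 6496 CPM (counts scaled to library size). All 7 skeletal muscle markers were detected in each group, and none was called in any of the 7 comparisons. Their sum varied widely between libraries of a group, with the highest median in knockout SNI (663 CPM). Their sum was 144 to 1124 CPM in knockout SNI, 4.90 to 321 in control SNI, 15.8 to 198 in knockout naive and 4.10 to 94.1 CPM in control naive libraries. Their part in the results was not tested. The genes of the 3 microRNAs had 0 to 2 counts in the whole table, which cannot show the deletion.

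Il31ra, the subunit that binds interleukin 31 (chromosome 13, 112519898 to 112594360, minus strand, GRCm38), was lower in knockout ganglia with and without injury. It had 16.1, 15.9 and 10.7 CPM in knockout SNI libraries and 35.8, 24.6 and 35.6 CPM in control SNI libraries. It had 3.66, 8.63, 6.94 and 8.62 CPM in knockout naive libraries and 29.1, 30.4, 25.0, 39.4 and 34.1 CPM in control naive libraries. Every knockout library lay below every control library of the same condition, and the naive knockout libraries lay below all the others. In naive mice the mean was 6.96 ± 2.34 CPM in knockout (SD, n = 4) and 31.6 ± 5.42 CPM in control ganglia (n = 5), that is 22% of control. Its log2 change was -2.19 (SE 0.222, adjusted p = 5.5e-05, edgeR quasi-likelihood test), and the gene was called whichever of the 15 libraries was left out. After injury the mean was 14.2 ± 3.05 CPM in knockout and 32.0 ± 6.42 CPM in control ganglia (n = 3 each), 44.5% of control (log2 -1.16, SE 0.25, adjusted p = 0.0365). That call was weaker: it was lost without any 1 of 10 libraries, with adjusted p = 0.157 without knockout SNI replicate 21, 0.114 without 19, 0.0605 without 13 and 0.101 without control SNI replicate 23. It was also lost with Wnt1-Cre controls alone (log2 -1.34, adjusted p = 0.169), which leaves 1 injured control, and without the low-count filter (adjusted p = 0.0587). In bulk ganglia, fewer itch neurons and less RNA per itch neuron cannot be told apart.

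**Figure D1:**
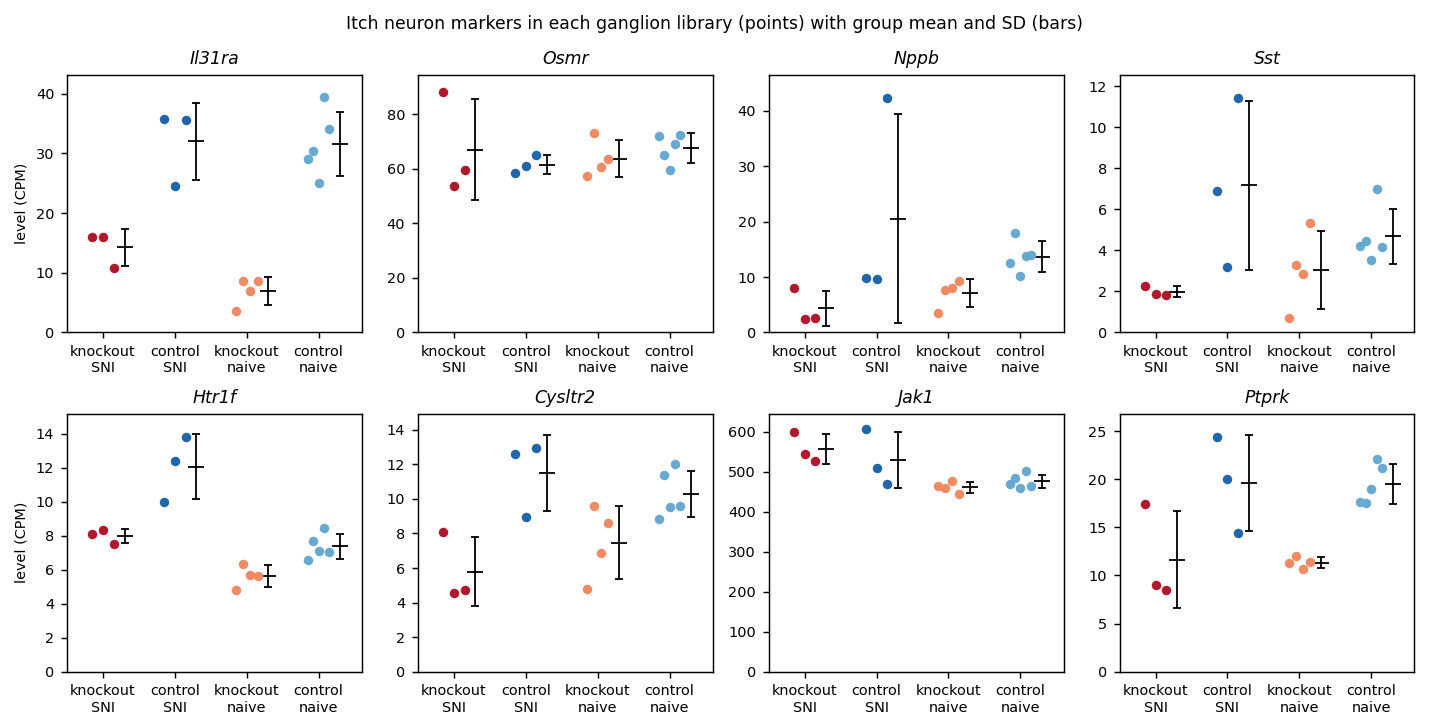
Level of each of the 8 genes in CPM (vertical axis, from 0, on its own scale per gene) in knockout SNI, control SNI, knockout naive and control naive libraries. Points are libraries and bars are the group mean and SD. The 4 knockout naive libraries sit between 3.66 and 8.63 CPM for Il31ra, below the 5 control naive libraries (25.0 to 39.4 CPM), whereas the groups overlap for Osmr and Jak1 between genotypes.

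Osmr, the partner subunit (chromosome 15, 6813577 to 6874969, minus strand), was not called between genotypes. It had 88.1, 53.6 and 59.4 CPM in knockout SNI, 58.6, 60.9 and 65.2 CPM in control SNI, 57.2, 73.1, 60.7 and 63.6 CPM in knockout naive and 72.0, 65.0, 59.4, 69.2 and 72.4 CPM in control naive libraries. The groups overlapped in each comparison. The log2 fold change of knockout against control was -0.09 (SE 0.122, adjusted p = 0.893) in naive and 0.12 (SE 0.150, adjusted p = 0.653) in injured mice, and the injured value turned to -0.12 without knockout SNI replicate 13, the library with the highest Osmr level. Jak1, the kinase bound to these receptors (chromosome 4, 101152367 to 101265282, minus strand), had 527 to 599 CPM in knockout SNI, 470 to 606 in control SNI, 445 to 478 in knockout naive and 460 to 502 CPM in control naive libraries. Its fold change between genotypes was -0.05 (SE 0.0778) in naive and 0.07 (SE 0.0947) in injured mice on the log2 scale, and neither was called (adjusted p = 0.917 and 0.668).

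Relative to Osmr, Il31ra was lower in every knockout library than in any control library. Per kilobase of exon, the Il31ra level was 38.5 to 63.4% of the Osmr level in knockout SNI libraries (mean 46.9 ± 14.3%, SD, n = 3) and 86.1 to 130% in control SNI libraries (111 ± 22.6%, n = 3). In naive mice it was 13.7 to 28.9% in knockout libraries (23 ± 6.57%, n = 4) and 86.2 to 121% in control libraries (99.6 ± 13.7%, n = 5). The ratio shows unequal change of the subunits within a library and does not show that either was constant. Its height depends on the exon lengths used, 5673 bases for Il31ra and 12113 for Osmr, so a value near 100% does not show equal amounts.

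**Figure D2:**
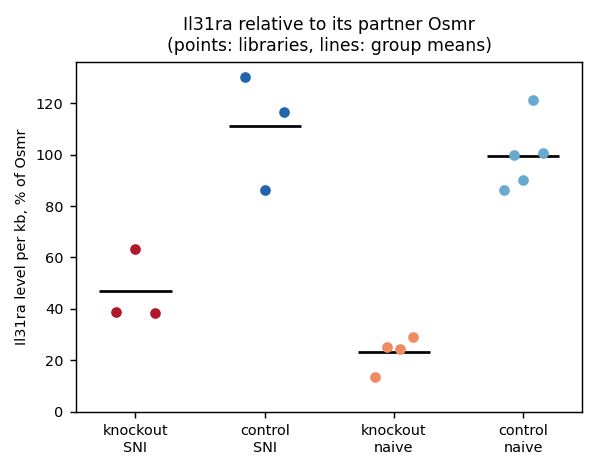
Il31ra level per kilobase of exon as a percentage of the Osmr level per kilobase (vertical axis, from 0) in each library of the 4 groups. Points are libraries and lines are group means, which were 46.9% in knockout SNI, 111% in control SNI, 23% in knockout naive and 99.6% in control naive mice. The knockout libraries lie below the control libraries of the same condition.

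Nppb (chromosome 4, 147985788 to 147987205, plus strand) and Sst (chromosome 16, 23889573 to 23890958, minus strand) encode the peptides of this class. Nppb had 7.96, 2.46 and 2.60 CPM in knockout SNI libraries, against 9.80, 9.60 and 42.3 CPM in control SNI libraries. It had 3.46, 7.73, 7.98 and 9.27 CPM in knockout naive libraries, against 12.5, 17.9, 10.3, 13.8 and 14.0 CPM in control naive libraries. The genotypes did not overlap in either condition, yet neither difference was called. The log2 fold change was -2.21 (SE 0.609, adjusted p = 0.100) after injury and -0.95 (SE 0.471, adjusted p = 0.477) in naive mice. The size of the injured value rests on control SNI replicate 23, the library that stood apart. Without it the value was -1.21 (adjusted p = 0.287), and without knockout SNI replicate 13 it was -2.94 (adjusted p = 0.069). It was called without control SNI replicate 15 or 18, which leave replicate 23 in (adjusted p = 0.0173 and 0.0453).

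Sst, the scarcest of the 8 genes in counts (559 over all libraries), had 2.27, 1.89 and 1.80 CPM in knockout SNI and 6.88, 3.20 and 11.4 CPM in control SNI libraries. It had 0.712, 3.27, 2.85 and 5.36 CPM in knockout naive and 4.23, 4.48, 3.55, 7.01 and 4.15 CPM in control naive libraries. The injured genotypes were apart and the naive ones overlapped. The log2 fold change was -1.78 (SE 0.525, adjusted p = 0.107) after injury and -0.65 (SE 0.413, adjusted p = 0.630) in naive mice. Without control SNI replicate 23 the injured value was -1.34 (adjusted p = 0.300), and without replicate 18 it was called at -2.16 (adjusted p = 0.0373). DESeq2, which was run beside edgeR, called both peptide genes after injury (adjusted p = 0.0146 for Nppb and 0.0166 for Sst).

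The receptors for serotonin and leukotrienes passed the edgeR test in neither condition alone. DESeq2 called both after injury (adjusted p = 0.0393 for Htr1f and 0.0138 for Cysltr2). With edgeR the injured value of Htr1f was called in 1 of the 15 omissions, that of control SNI replicate 15 (adjusted p = 0.0119). Htr1f (chromosome 16, 64924729 to 65105854, minus strand) had 8.09, 8.33 and 7.50 CPM in knockout SNI and 10, 12.4 and 13.8 CPM in control SNI libraries. It had 4.78, 6.35, 5.70 and 5.62 CPM in knockout naive and 6.60, 7.70, 7.10, 8.47 and 7.02 CPM in control naive libraries. The genotypes were apart in both conditions by small margins, with log2 fold changes of -0.58 (SE 0.155, adjusted p = 0.0803) after injury and -0.39 (SE 0.133, adjusted p = 0.192) in naive mice. Cysltr2 (chromosome 14, 73025603 to 73049114, minus strand) had 8.09, 4.55 and 4.70 CPM in knockout SNI and 12.6, 8.98 and 12.9 CPM in control SNI libraries. It had 4.78, 9.62, 6.84 and 8.62 CPM in knockout naive and 8.86, 11.4, 9.52, 12.0 and 9.60 CPM in control naive libraries. The injured genotypes did not overlap and the naive ones did, with values of -1.0 (SE 0.259, adjusted p = 0.074) and -0.46 (SE 0.205, adjusted p = 0.376) on the log2 scale. The injured value was called without knockout SNI replicate 13 (log2 -1.30, adjusted p = 0.0324) or control SNI replicate 15 or 18 (adjusted p = 0.0369 and 0.042).

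Ptprk (chromosome 10, 28074820 to 28597397, plus strand) was lower in naive knockout ganglia. It had 11.3, 12.0, 10.6 and 11.4 CPM in knockout naive libraries, against 17.6, 17.6, 19, 22.1 and 21.1 CPM in control naive libraries. The naive groups lay apart, with the knockout mean at 58.1% of control (log2 -0.78, SE 0.186, adjusted p = 0.0376). The call was lost without any 1 of the 9 naive libraries (adjusted p = 0.0625 to 0.131). Over the 15 omissions the log2 value stayed between -0.82 and -0.73. In injured mice it had 17.4, 9.0 and 8.50 CPM in knockout and 24.4, 20.0 and 14.5 CPM in control libraries, which overlapped. The value after injury was of like size, -0.79 (SE 0.227, adjusted p = 0.100), and reached -1.18 (adjusted p = 0.008) without knockout SNI replicate 13. DESeq2 called Ptprk after injury (adjusted p = 0.0292).

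**Figure D3:**
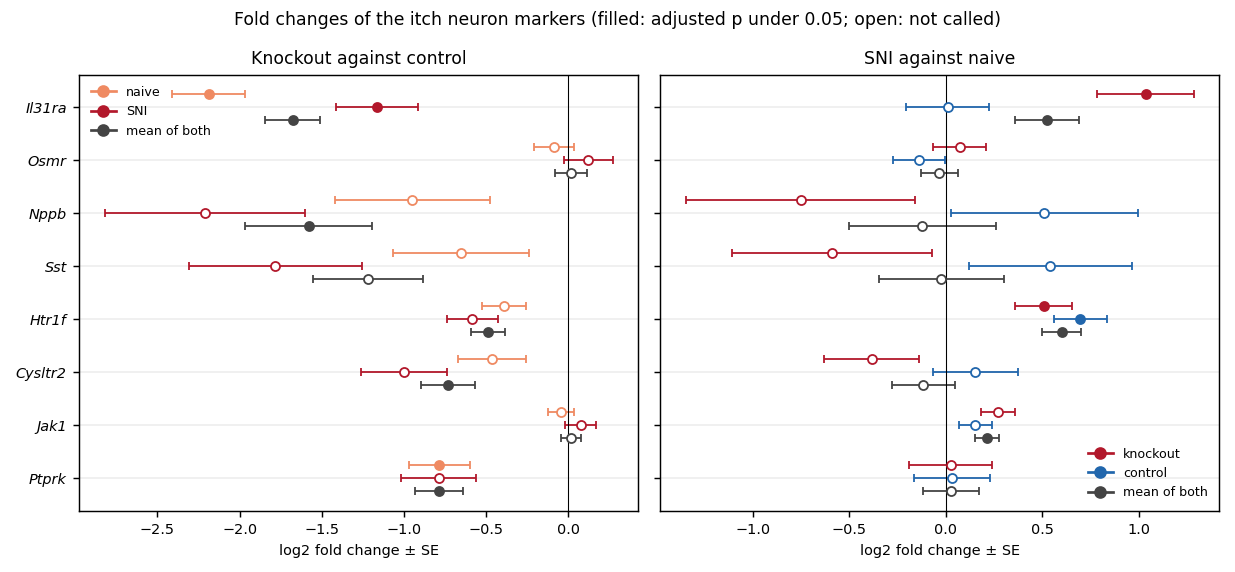
Log2 fold changes with their SE (horizontal axis) of the 8 genes, for knockout against control on the left (naive, SNI and the mean of both) and for SNI against naive on the right (knockout, control and the mean of both). Filled points passed an adjusted p of 0.05 and open points did not. Il31ra lies at -2.19 in naive and -1.16 in injured mice on the left, and at 1.03 in knockout and 0.01 in control mice on the right.

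Counted over the 8 genes, 2 fell in naive knockout ganglia (Il31ra and Ptprk) and none rose, where 1.00% of the 16976 tested genes fell and 0.889% rose (170 and 151 genes, and 273 and 72 when scaled to neuronal markers). After injury 1 fell (Il31ra) and none rose, where 0.377% of tested genes fell and 0.666% rose (64 and 113 genes, and 81 and 48 when scaled to neuronal markers). All 8 log2 values were below 0 in naive mice, with a median of -0.56 against 0.00 over all tested genes, and 6 were below 0 after injury, with a median of -0.89 against -0.01. Every knockout library was below every control library for 4 genes in naive mice (Il31ra, Nppb, Htr1f and Ptprk), as for 4.75% of tested genes. The same held for 5 genes after injury (Il31ra, Nppb, Sst, Htr1f and Cysltr2), as for 8.19% of tested genes. These counts describe genes chosen with earlier results known.

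Averaged over naive and injured mice, knockout against control, 5 of the 8 genes fell and none rose, where 1.98% of tested genes fell and 2.19% rose. These were 336 genes lower and 372 higher, and with scaling to neuronal markers 635 were lower and 185 higher. Il31ra fell by 1.68 (SE 0.168, adjusted p = 1.89e-05), Ptprk by 0.79 (SE 0.147, adjusted p = 0.00469) and Htr1f by 0.49 (SE 0.102, adjusted p = 0.0100) on the log2 scale. These 3 calls held without any 1 library, and that of Htr1f was lost with Wnt1-Cre controls alone (adjusted p = 0.117). Cysltr2 fell by 0.73 (SE 0.165, adjusted p = 0.0164), and its call was lost without knockout SNI replicate 19 or 21 (adjusted p = 0.0596 and 0.0603). Nppb fell by 1.58 (SE 0.385, adjusted p = 0.0356), but its call was lost without any 1 of 10 libraries (adjusted p = 0.0515 to 0.102). It was -1.09 (adjusted p = 0.163) with Wnt1-Cre controls alone, and adjusted p was 0.0900 without the low-count filter. Sst just missed the threshold at -1.22 (SE 0.334, adjusted p = 0.0537) and was called without knockout naive replicate 4 or 9 or control SNI replicate 18. Osmr at 0.02 (SE 0.0967) and Jak1 at 0.01 (SE 0.0613) were not called (adjusted p = 0.937 and 0.919). These averages combine the naive and the injured differences and add no animals to them.

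Single libraries carried several of the genes up or down together. Knockout naive replicate 4 was the lowest of its group for 6 of the 8 genes, and control naive replicate 6 the highest of its group for 6. Knockout SNI replicate 13 was the highest of its group for 7, and control SNI replicate 23 for 5. In naive mice the log2 fold change of Nppb was between -1.09 and -0.71, and that of Sst between -1.03 and -0.31, on leaving out 1 library.

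**Figure D4:**
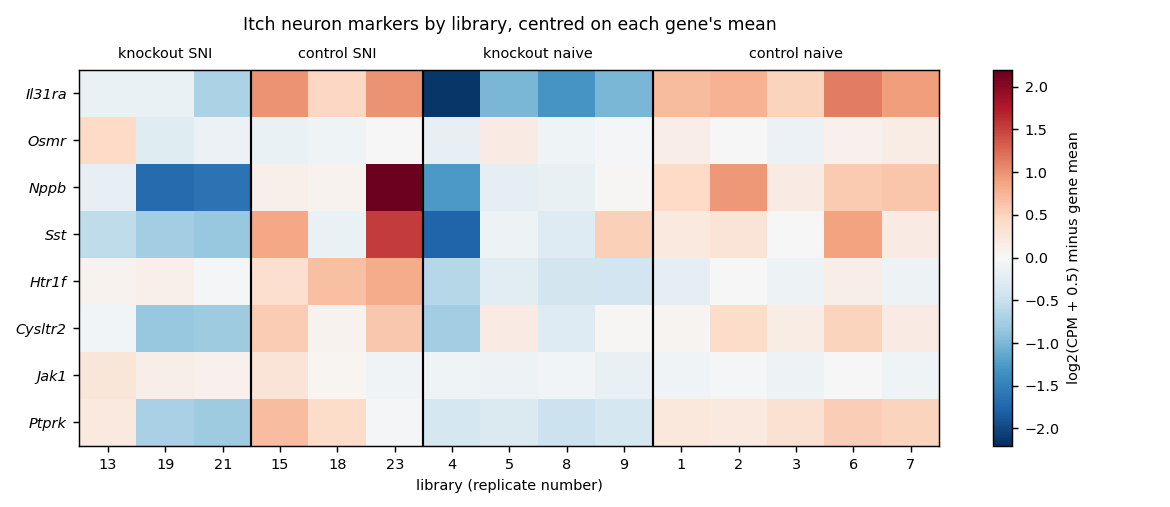
Level of the 8 genes (rows) in each of the 15 libraries (columns, by replicate number, grouped as knockout SNI, control SNI, knockout naive and control naive), as log2 of CPM plus 0.5, minus the mean of the gene. Blue is below and red above the mean of the gene. Il31ra is blue in the 7 knockout and red in the 8 control libraries, and Nppb and Sst are reddest in control SNI replicate 23.

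Injury was compared within each genotype. In control mice 1 of the 8 genes rose with SNI (Htr1f) and none fell, where 2.12% of tested genes rose and 0.359% fell (360 and 61 genes, and 211 and 80 when scaled to neuronal markers). Htr1f averaged 12.1 ± 1.92 CPM in control SNI (SD, n = 3) and 7.38 ± 0.728 CPM in control naive ganglia (n = 5), without overlap (log2 0.70, SE 0.137, adjusted p = 0.00844). The call was just lost without control SNI replicate 18 (adjusted p = 0.0503) and with Wnt1-Cre controls alone (log2 0.44, adjusted p = 0.319). Il31ra was not called with injury in control mice, with 32.0 ± 6.42 CPM in SNI and 31.6 ± 5.42 CPM in naive libraries (log2 0.01, SE 0.215, adjusted p = 0.988). Nppb was at 0.51 (SE 0.484, adjusted p = 0.649) and turned to -0.49 without control SNI replicate 23, and Sst was at 0.54 (SE 0.423, adjusted p = 0.563) and 0.11 without it.

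In knockout mice 2 of the 8 genes rose with SNI (Il31ra and Htr1f) and none fell, where 7.17% of tested genes rose and 2.94% fell. Il31ra averaged 14.2 ± 3.05 CPM in knockout SNI (n = 3) and 6.96 ± 2.34 CPM in knockout naive ganglia (n = 4), and its log2 fold change was 1.03 (SE 0.25, adjusted p = 0.0166). The groups did not overlap, and the call was lost without knockout SNI replicate 19 (adjusted p = 0.0922) or knockout naive replicate 8 (0.0526). Htr1f averaged 7.97 ± 0.427 CPM in knockout SNI and 5.61 ± 0.643 CPM in knockout naive ganglia (log2 0.51, SE 0.149, adjusted p = 0.0414). That call was lost without any 1 of 8 libraries (adjusted p = 0.0501 to 0.161), without the low-count filter and when scaled to neuronal markers (0.0791 and 0.0793). Jak1 lay apart too, at 557 ± 37.5 CPM in knockout SNI and 461 ± 13.6 CPM in knockout naive libraries, and just missed the threshold (log2 0.27, SE 0.0882, adjusted p = 0.0605). Jak1 was called with DESeq2 (adjusted p = 0.00878) and with DESeq2 size factors in edgeR (0.0458). It was called in 2 of the 15 omissions, those of control SNI replicate 15 or 23 (0.0202 and 0.0085), and reached 0.179 without knockout SNI replicate 13. Nppb (-0.75, SE 0.594), Sst (-0.59, SE 0.520), Cysltr2 (-0.38, SE 0.246), Osmr (0.07, SE 0.139) and Ptprk (0.02, SE 0.217) were not called, with adjusted p of 0.325 or more.

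Averaged over both genotypes, 3 of the 8 genes rose with SNI and none fell, where 8.27% of tested genes rose and 4.09% fell (1404 and 695 genes, and 860 and 766 when scaled to neuronal markers). Htr1f rose by 0.60 (SE 0.101, adjusted p = 8.2e-04) on the log2 scale, without losing its call in any of the 15 omissions. Jak1 rose by 0.21 (SE 0.0610, adjusted p = 0.0313), and lost its call without knockout SNI replicate 13 or 19 or control SNI replicate 15 (adjusted p up to 0.0756), without the low-count filter (0.0710) and when scaled to neuronal markers (0.162). Il31ra rose by 0.52 (SE 0.164, adjusted p = 0.0485), a call that 10 of the 15 omissions ended (adjusted p up to 0.129), as did no low-count filter (0.0793), scaling to neuronal markers (0.0689) and Wnt1-Cre controls alone (0.0517).

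Whether injury acted differently in knockout and control mice was tested as the difference of the injury effects. None of the 8 genes and 0% of tested genes were called with edgeR, where 2281 of the 16976 genes had an unadjusted p under 0.05, and DESeq2 called 12 genes and limma-voom 0. Il31ra had the smallest p of the 8 genes, with a difference of 1.02 on the log2 scale (SE 0.331, adjusted p = 0.365). The adjusted p was between 0.0615 and 0.577 over the 15 omissions. Nppb stood at -1.26 (SE 0.767), Sst at -1.13 (SE 0.670) and Cysltr2 at -0.54 (SE 0.329), each with an adjusted p of 0.435 or more. That Il31ra rose with injury in knockout mice and was not called in control mice is not shown to be a difference between the genotypes.

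Compared between genes per kilobase of exon, the level order in naive control ganglia was Jak1, Nppb, Sst, Osmr, Il31ra, Cysltr2, Htr1f and Ptprk. Jak1 had 65.9 ± 2.35 CPM per kilobase (SD, n = 5), Nppb 17.5 ± 3.57, and Ptprk 1.46 ± 0.155. Sst at 6.50 ± 1.87, Osmr at 5.58 ± 0.450 and Il31ra at 5.57 ± 0.955 CPM per kilobase lay within each other's spread. Cysltr2 at 3.58 ± 0.470 and Htr1f at 2.86 ± 0.282 came below them. In naive knockout ganglia Il31ra, at 1.23 ± 0.412 CPM per kilobase (n = 4), stood seventh, above Ptprk (0.849 ± 0.0415) and below Htr1f (2.18 ± 0.249). Nppb remained next to Jak1 there, at 9.11 ± 3.24 CPM per kilobase. The exon length was that of all annotated transcripts merged, 5673 bases for Il31ra, 12113 for Osmr and 13328 for Ptprk. A merged length can exceed that of any 1 transcript and then understates the level. The order with other lengths was not tested.

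Other genes of the pathway were taken from lists. Of 20 genes of the interleukin 31 and oncostatin M pathway, 17 were tested, and none was called between genotypes in naive or injured mice or in their average. Their median log2 was -0.06 in naive and 0.12 in injured mice, against 0.00 and -0.01 over all tested genes. Il31 itself had no count in any library, and Osm and Il6 had 55 counts each over all libraries and were not tested. Injury raised 5 of the 17 in knockout mice, where 7.17% of all tested genes rose, and 1 in control mice, where 2.12% rose, and lowered none. Stat5a, a transcription factor downstream of cytokine receptors, averaged 18.3 ± 6.27 CPM in knockout SNI and 9.46 ± 0.603 CPM in knockout naive ganglia (log2 0.96, adjusted p = 0.00343). Socs3, the feedback inhibitor of Jak and Stat signalling, averaged 12.6 ± 3.40 CPM in knockout SNI and 6.44 ± 0.973 CPM in knockout naive ganglia (log2 0.98, adjusted p = 0.00700, and 0.0683 without knockout SNI replicate 19). Stat5b and Lifr, a receptor subunit that pairs with Il6st, rose by 0.61 and 0.33. The calls of both were lost without knockout SNI replicate 19 (adjusted p = 0.0576 and 0.0964), and that of Lifr without any 1 of 6 libraries. In control mice the gene that rose was Cish, another feedback inhibitor (log2 0.70, adjusted p = 0.0456), and its call was lost without any 1 of 10 libraries (adjusted p up to 0.161), when scaled to neuronal markers (0.141) and with Wnt1-Cre controls alone (0.109). Macrophages carry these factors too, and of 10 macrophage markers 4 rose with injury in knockout and 6 in control mice. Their summed level was 250 to 304 CPM in knockout SNI, 198 to 302 in control SNI, 149 to 221 in knockout naive and 130 to 158 CPM in control naive libraries. Their part in the rise of the pathway genes was not tested.

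Of 5 further genes expressed in this class of itch neurons, Nts and Trpa1 fell in knockout ganglia when naive and injured mice were averaged. In that average 1.98% of tested genes fell. After injury 1 of the 5 was called lower, where 0.377% of tested genes fell. Htr2a, Plcb3 and Trpv1 were not called. Nts, the neuropeptide neurotensin, averaged 60.6 ± 15.5 CPM in knockout SNI and 173 ± 79.5 CPM in control SNI ganglia. It averaged 2.99 ± 1.18 CPM in knockout naive and 8.45 ± 2.39 CPM in control naive ganglia. The genotypes lay apart in both conditions, with a log2 fold change of -1.50 (adjusted p = 0.0391) after injury, lost without any 1 of 10 libraries (adjusted p up to 0.153), and -1.52 (adjusted p = 0.0538) in naive mice. The injured value was -0.98 (adjusted p = 0.340) with Wnt1-Cre controls alone, and its call was also lost without the low-count filter (adjusted p = 0.0908). The average was -1.51 (SE 0.242, adjusted p = 0.00259). Injury raised Nts by 4.37 in knockout and 4.35 in control mice on the log2 scale (adjusted p = 4.34e-06 and 1.08e-06). Trpa1, an irritant-gated cation channel found in several kinds of nociceptor, averaged -0.60 (SE 0.112, adjusted p = 0.00464) between genotypes.

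Among 19 genes of peptide receptors, peptide processing and the spinal itch peptides, 14 were tested. In naive mice 1 of them was lower in knockout ganglia, where 1.00% of tested genes were lower. Sstr2, a receptor of somatostatin, fell in naive knockout ganglia, with 3.89 ± 0.983 CPM in knockout and 7.39 ± 1.10 CPM in control mice (log2 -0.92, SE 0.190, adjusted p = 0.0165), and lost its call without any 1 of 5 naive libraries (adjusted p up to 0.0779). No other gene of the list was called in naive mice, none was called between genotypes after injury, and the receptors Npr1 and Npr2 of natriuretic peptides were not called in any comparison. With injury, Sstr1 and Corin rose in knockout mice, 2 of the 14 genes, where 7.17% of tested genes rose. Sstr1, another somatostatin receptor, averaged 3.10 ± 0.524 CPM in knockout SNI and 0.984 ± 0.265 CPM in knockout naive ganglia (log2 1.66, adjusted p = 0.00717). Corin, a protease that processes atrial natriuretic peptide in the heart, rose by 1.17 (adjusted p = 0.0244, and lost without knockout naive replicate 5 or 8 or knockout SNI replicate 19 or 21, at 0.0587, 0.0816, 0.170 and 0.0671).

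Of 14 genes of serotonin receptors and the leukotriene pathway, 11 were tested, and Htr1a was the only one called between genotypes. The call was in naive mice and in the average, where 1.00% and 1.98% of tested genes fell. Htr1a averaged 2.45 ± 0.698 CPM in knockout naive and 10.2 ± 1.49 CPM in control naive ganglia (log2 -2.06, SE 0.297, adjusted p = 0.00107), called in all 15 omissions. After injury it averaged 3.05 ± 0.781 CPM in knockout and 8.29 ± 4.35 CPM in control ganglia, which overlapped (log2 -1.44, adjusted p = 0.0662). The injured value was called with DESeq2 (adjusted p = 0.00669), and with edgeR when scaled to neuronal markers (0.0419) or without control SNI replicate 18 (0.00257). With injury 1 of the 11 genes was called lower in knockout and 1 in control mice, where 2.94% and 0.359% of tested genes fell. Htr3a, the serotonin-gated ion channel subunit, fell with injury by 0.65 in knockout mice (adjusted p = 0.0143, and up to 0.0974 on leaving out knockout naive replicate 8 or knockout SNI replicate 19 or 21) and by 0.85 in control mice (adjusted p = 0.00357, and 0.0971 with Wnt1-Cre controls alone). Of the 3 phosphatases of the Ptprk family, Ptprt fell in naive knockout ganglia, where 1.00% of tested genes fell. It had 129 ± 14.6 CPM in knockout and 223 ± 33.5 CPM in control mice (log2 -0.79, SE 0.125, adjusted p = 0.00224), while Ptprm and Ptpru were not called.

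Markers of the other itch neuron classes moved both ways in naive knockout ganglia, with 2 of 7 higher and 3 lower, where 0.889% of tested genes were higher and 1.00% lower. Mrgpra3 and Mrgprx1, receptors for itch agents on another class, rose by 1.70 and 0.91 on the log2 scale (adjusted p = 4.77e-04 and 0.00305). The 2 belong to a family of similar paralogs, so their counts may be affected by reads that match both. Mrgprd, the β-alanine receptor, fell by 0.90 (adjusted p = 0.00623). Lpar3 and Lpar5, receptors of lysophosphatidic acid, fell by 0.93 (adjusted p = 0.00875, and 0.0565 without knockout naive replicate 8) and 0.91 (adjusted p = 0.0200, and up to 0.092 without any 1 of 5 naive libraries). After injury 1 of the 7 was called, Mrgprx1, which rose by 0.97 (adjusted p = 0.0224, and 0.0702 and 0.080 without knockout SNI replicate 13 or 21, and 0.195 with Wnt1-Cre controls alone), where 0.666% of tested genes rose.

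The genes whose pattern over the 15 libraries was most like that of a marker were found by the root mean square (RMS) difference of log2 levels centred on each gene's mean, among genes of at least 1 CPM. For Il31ra, whose own RMS deviation was 1.00, they were Htr1a (0.416), Lrrc8b (0.614), Ceacam10 (0.617), Plek2 (0.620) and Fbp2 (0.622). For Nppb they were Fgg (0.475), Ceacam10 (0.512), Ccdc68 (0.536), Ly86 (0.541) and Ms4a3 (0.559), against an own RMS deviation of 0.995. For Sst they were Slc17a8 (0.480), Chst9 (0.524), Cyp2j12 (0.538), Npy2r (0.554) and Otoa (0.557), against 0.857. The likeness is a description over libraries that share the same groups.

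The promoters of the receptor and the peptide genes are shown because Il31ra, Nppb and Sst had the lowest knockout level as a share of control among the 8 genes after injury. Each runs over 250 bases before and 50 after a RefSeq start (GRCm38.p6), at chr13:112580613-112580912 (minus strand), chr4:147985650-147985949 (plus strand) and chr16:23890795-23891094 (minus strand). Each start lies inside the gene span given above, which begins at a start farther upstream in GENCODE. Capitals mark the motifs that were searched on both strands, which do not overlap one another here, the cAMP response element (TGACGTCA) and the TATA box (TATAAA).
Il31ra promoter: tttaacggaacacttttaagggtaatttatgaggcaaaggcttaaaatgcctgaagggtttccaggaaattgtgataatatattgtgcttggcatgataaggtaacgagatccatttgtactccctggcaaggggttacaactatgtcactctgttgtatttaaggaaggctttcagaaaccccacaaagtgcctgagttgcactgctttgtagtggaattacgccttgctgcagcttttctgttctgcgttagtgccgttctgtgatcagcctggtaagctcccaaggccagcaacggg
Nppb promoter: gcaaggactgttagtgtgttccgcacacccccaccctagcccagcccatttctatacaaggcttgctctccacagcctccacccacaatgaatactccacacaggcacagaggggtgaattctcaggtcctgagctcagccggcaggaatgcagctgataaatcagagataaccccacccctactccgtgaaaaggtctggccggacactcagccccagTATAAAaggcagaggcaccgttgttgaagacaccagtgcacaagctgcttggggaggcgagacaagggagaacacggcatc
Sst promoter: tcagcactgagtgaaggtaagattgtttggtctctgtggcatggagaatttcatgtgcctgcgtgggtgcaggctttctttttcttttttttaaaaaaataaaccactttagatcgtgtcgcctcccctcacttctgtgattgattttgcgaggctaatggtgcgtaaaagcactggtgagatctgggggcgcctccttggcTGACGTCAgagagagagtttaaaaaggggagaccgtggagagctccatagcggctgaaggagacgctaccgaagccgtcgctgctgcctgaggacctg
Sst held the cAMP response element with its first base 48 bases before the start, as did Jak1 at 101 bases before the start, and 1.79% of 32851 windows held it. Nppb held the TATA box 31 bases before the start, and 13.6% of windows held it at any position on either strand. The Il31ra window held neither.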

How the data were processed

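The deposited table holds read counts per Ensembl gene in 15 libraries, and the values were whole numbers. Per the labels' protocols, total RNA came from Trizol and a stranded kit for mRNA was used. The submitters' processing notes list GRCm38, the aligner TopHat2 2.0.4, the counter HTSeq 0.6.1, and SAMtools, DESeq2 and Cufflinks. The strand setting, the annotation release and the time since injury are not given in these sources. Symbols came from GENCODE M21 (37607 of 39179 identifiers, and those without one hold 0.523% of the counts).

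All libraries entered 1 edgeR fit of 4 group means (version 4.0.16, TMM, filterByExpr with a minimum count of 10, robust quasi-likelihood F test, 11 residual degrees of freedom), and 7 two-sided comparisons were made. Of 27310 genes with a count, 16976 were tested. Calls are at an adjusted p under 0.05 (Benjamini-Hochberg, all tested genes). Levels are CPM scaled by TMM. Levels per kilobase are divided by the merged length of all annotated exons of a gene (GENCODE M21). A median over the genes is that of the fitted log2 fold changes. The SE of a log2 fold change was worked back from the test, as its absolute value divided by the square root of F. Alternatives used DESeq2 1.42.0, DESeq2 size factors, limma-voom 3.58.1, no filter, scaling to pan-neuronal markers, Wnt1-Cre controls only, and each library left out in turn. The fit was tested on simulated data.

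The members and gene lists were chosen with earlier results of these data known. All members are described, up to 4 genes with the smallest p of each list are named, not all that the rule allows, and a few genes named as not called (Il31, Osm, Il6, Htr2a, Plcb3, Trpv1, Npr1, Npr2, Ptprm and Ptpru) and Lpar5 were added after their values were seen. For Il31ra, Nppb and Sst the 5 most alike genes are named, from a ranking that left out the members and genes with predicted or clone-like names.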

Additional observations from a re-analysis of the deposited data

Results flagged for a closer look

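Among 16 checks of the 8 genes in the naive groups, 1 library lay far from the others of its group. Sst stood at 7.01 CPM in control naive replicate 6, against 3.55 to 4.48 CPM in the other 4 control naive libraries. Such a check picks out about 1 in 20 groups by chance. The same library was the highest of its group for 6 of the 8 genes. Without it the naive log2 fold change of Sst was -0.45 (adjusted p = 0.877), against -0.65 with it.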

How the results depend on the processing

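Of 1176 repeats of the members' values, 1032 kept their direction and call, 68 lost a call, 23 gained one and 53 turned in sign. The values that turned in sign belonged to comparisons in which that member was not called in the main fit. The cause of each change was not tested, except that Wnt1-Cre controls alone leave 1 injured control. No paired analysis was made, because each library came from a different animal and the labels name no pairs or litters. With DESeq2 the genes called were 515 in naive knockout against control (321 with edgeR), 925 after injury (177), 1071 on average (708), 673 for injury in control (421) and 12 for the difference of the injury effects (0), and 6 members were called after injury in place of 1. Without the filter, 0 of 8 members and 143 of 27310 genes were called in knockout against control after injury. Injury gave 1 member and 1364 genes in knockout, and 1 member and 1808 genes on average. For the difference of the injury effects 1 gene was called. Scaling to neuronal markers shifted the median of all genes by -0.10 in naive knockout against control. Injury then gave 1139 genes (1717) and 1 member in knockout, and 1626 genes (2099) and 1 member on average. With Wnt1-Cre controls only, knockout against control gave 709 genes in naive mice, 74 genes and 0 members after injury and 3 members on average. Injury then gave 259 genes and 0 members in control, 4745 genes in knockout, 4028 on average (2099) and 1 gene for the difference. With 1 library left out, knockout against control gave 151 to 708 genes and 1 to 2 members in naive mice, 57 to 3558 genes and 0 to 4 members after injury, and 480 to 2009 genes and 3 to 6 members on average. Injury gave 283 to 1506 genes and 0 to 1 members in control, 587 to 4409 genes and 0 to 3 members in knockout, 1322 to 4992 genes and 1 to 3 members on average, and 0 to 1235 genes for the difference. The highest gene counts left out control SNI replicate 15 or 23. Of the log2 values that turned in sign, those with DESeq2 were Sst at 0.0083 for injury on average and Ptprk at 0.0010 for the difference. With limma-voom they were Osmr at -9.9e-05 for the genotype on average, Il31ra at -0.0072 for injury in control, Ptprk at -0.074 for injury in knockout, and Sst at 0.027 and Ptprk at -0.019 for injury on average. Scaled to neuronal markers they were Osmr at -0.053 and Jak1 at -0.054 for the genotype on average, Il31ra at -0.084 and Ptprk at -0.041 for injury in control, Ptprk at -0.017 for injury on average and Ptprk at 0.049 for the difference. With Wnt1-Cre controls only they were Jak1 at -0.13 after injury and -0.089 on average for the genotype, Nppb at -0.45 for injury in control, and Htr1f at 0.077 and Jak1 at -0.074 for the difference. With 1 library left out, the genotype value of Osmr was -0.12 to 0.26 after injury and -0.10 to 0.087 on average, and that of Jak1 was -0.022 to 0.070 on average. Injury in control gave -0.093 to 0.18 for Il31ra, -0.49 to 0.87 for Nppb and -0.15 to 0.19 for Ptprk. Injury in knockout gave -0.17 to 0.21 for Osmr and -0.37 to 0.21 for Ptprk. Injury on average gave -0.61 to 0.056 for Nppb, -0.15 to 0.036 for Osmr, -0.17 to 0.12 for Ptprk and -0.23 to 0.18 for Sst, and the difference gave -0.034 to 0.35 for Osmr and -0.40 to 0.18 for Ptprk. Sst had 7 to 77 counts per library, which limits the precision of its values.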
